A study of Mus musculus with 20 samples.

Results

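Vip interneurons were taken as the hippocampal nuclei that held at least 2 unique molecular identifiers (UMIs, each marking 1 captured RNA molecule) of Gad1 and Gad2 together, which encode the enzymes of GABA synthesis, and at least 2 of Vip, which encodes vasoactive intestinal peptide. They held no UMI of Sst, Pvalb or Lhx6, which mark other interneurons, and none of the glial markers Mog, Pdgfra, Csf1r and Aqp4. The rule found 105 of 160777 nuclei, from each of 20 mice (1 to 13 per mouse, median 5). Of 544 nuclei with enough Vip and 4093 with enough Gad1 and Gad2, 128 had both, and among these 16 held a glial marker, 9 Sst, 2 Pvalb and 1 Lhx6.

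Vip cells are GABAergic interneurons that arise in the caudal ganglionic eminence. In the hippocampus many of them contact other interneurons, Sst cells above all, and so release pyramidal cells from inhibition; these interneuron-selective cells often hold calretinin, the product of Calb2. Others are basket cells that contain cholecystokinin, the product of Cck, and contact the cell bodies of pyramidal neurons.

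The data are UMI counts from single nuclei RNA-sequencing of frozen hippocampus, with 1 library per mouse. Male mice aged 4.5 to 5.5 months were either WT or hemizygous for the APP/PS1 transgenes (APPSwe/PS1ΔE9, here fAD) on the C57BL/6J background, and the WT mice were their littermates. Awake mice were not anesthetized, GA mice had 3 h of isoflurane at 1.5%, and KETA mice had 3 h under ketamine at 150 mg/kg with xylazine at 12 mg/kg. The labels give 6 WT and 3 fAD mice as Awake, 3 WT and 4 fAD as GA, and 2 WT and 2 fAD as KETA. The design text of the series differs from the labels by 1 mouse in each Awake and GA group, and the labels were followed. The mice were compared to ask how anesthesia and the fAD genotype alter expression, here in Vip nuclei.

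The libraries held 9243992 to 25394891 UMIs and 4743 to 10877 nuclei, and a median of 1235 to 3169 UMIs per nucleus. Mice 1 to 4 stood apart: mitochondrial genes took 0.939 to 1.78% of their UMIs, against at most 0.336% in the other 16 mice, and they supplied 37 of the 105 Vip nuclei. The transgenes of this line are driven by the mouse prion protein promoter, so their transcripts can be counted as Prnp. Over all nuclei, Prnp was at 63.6 and 74.5 CPM (a gene's UMIs scaled to the same total UMIs in each sum of nuclei) in mice 11 and 17, which are labelled fAD, and at 196 in mouse 14, labelled WT; the other WT libraries had 42.2 to 149 and the other fAD libraries 99.7 to 433. The 99.7 CPM belonged to mouse 20, labelled fAD, and lay within the range of those WT libraries. Genotype groups are therefore given as labelled. Of 157472 distinct barcodes, 3251 occurred in more than 1 library; 6 Vip nuclei had such a barcode, and no barcode was shared by 2 Vip nuclei.

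The Vip nuclei held a median of 3266 UMIs (649 to 13041) and 1685 genes, 381769 UMIs in all. Their Vip counts ran from 2 to 35 (median 5), with 17 nuclei at 2, 18 at 3 and 28 at 10 or more. The Gad1 and Gad2 sum was exactly 2 in 58 of them. For the background from free RNA, 96 of 4806 Mog nuclei without Gad1 or Gad2 held a Vip UMI (2.00%, median depth 1028.5 UMIs) and 6 held 2 or more (0.125%). In 10218 Slc17a7 nuclei, which are glutamatergic, the shares were 1.60% and 0.0881%, at a median depth of 3976.5 UMIs. A UMI of Slc17a7 was present in 15 Vip nuclei, and 7 Vip nuclei (6.67%) resembled simulated doublets, against 6.74% of all nuclei.

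Just outside the threshold, 45 nuclei met the rest of the rule with 1 Vip UMI. Their pooled level of Adarb2 was 7972 CPM, against 11326 in nuclei with 2 Vip UMIs and 13855 with 3 or more. Nxph1, a neurexophilin secreted by Sst, Pvalb and neurogliaform cells, was at 400 CPM with 1 Vip UMI, 68.6 with 2 and 71.1 with 3 or more. These values describe both sides of the cut and were not tested.

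The label was checked against markers that the rule did not use. Npas1, a transcription factor gene of Vip and other caudal eminence cells, was found in 35 of 105 Vip nuclei (33.3%, exact 95% interval 24.4 to 43.2%). It was found in 0.354% of Mog nuclei. By mouse, its level ran from 0 in 7 mice to 294 CPM in mouse 19. Of 24 listed Vip cell genes outside the rule, a list chosen with earlier results of these data known, 21 had a UMI in the Vip nuclei. Slc18a3, Slc17a8 and Krt73 were at 0. With the rule genes left out, 14935 of the 32285 genes counted also had a UMI in these nuclei, so this count alone does not mark the class. Adarb2, an RNA-binding protein gene typical of caudal eminence interneurons, was present in each of the 105 nuclei, and Synpr, which encodes the synaptic vesicle protein synaptoporin, in 94. Gene levels were set beside those of other GABAergic nuclei chosen in the same way: 139 Cnr1/Cck nuclei (cannabinoid receptor and cholecystokinin, the basket-type class), 61 Lamp5 nuclei (neurogliaform and ivy type), 282 Sst nuclei, and all 3493 GABAergic nuclei with no Vip UMI. Summed over the class, each level is in CPM of that class.

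**Figure D1:**
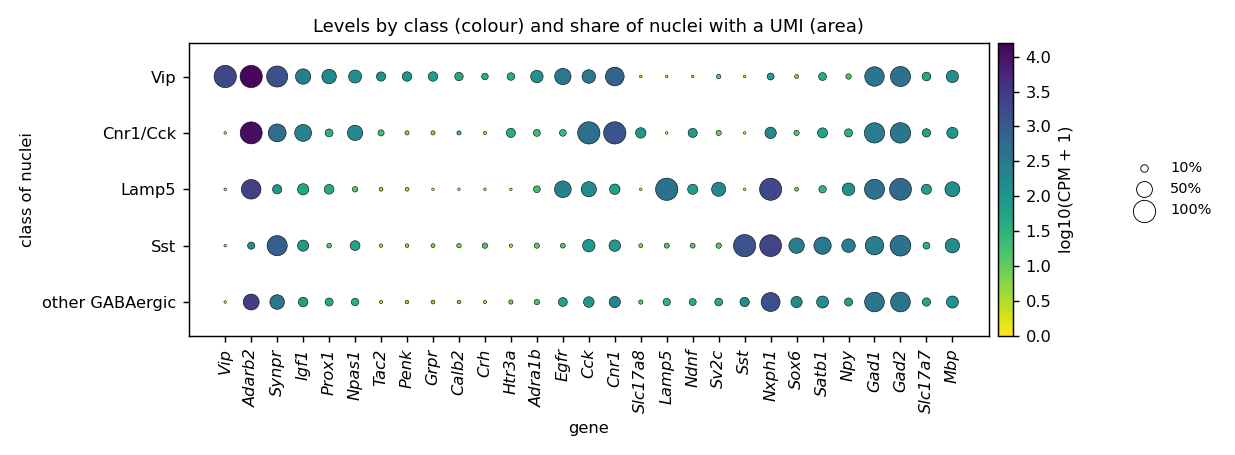
Levels of 29 genes (columns) in Vip nuclei and 4 comparison classes (rows), with colour for log10 of pooled CPM plus 1 and dot area for the percent of nuclei with a UMI. Adarb2 is dark in the Vip and Cnr1/Cck rows, at 13469 and 11447 CPM, and Nxph1 in the Sst, Lamp5 and other GABAergic rows; Vip, Sst, Lamp5, Cnr1, Cck, Gad1 and Gad2 were used to choose nuclei and show the rules.

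Some genes of the Vip list were shared with the Cnr1/Cck class, some were higher in Vip nuclei, and some were lower than in another class. Adarb2 was at 13469 CPM in Vip nuclei, 11447 in Cnr1/Cck, 2441 in Lamp5 and 133 in Sst nuclei. Igf1, an insulin-like growth factor, was at 254, 200, 49.6 and 82.7 CPM in the same order. Npas1 was at 134 and 166 CPM in Vip and Cnr1/Cck nuclei, and 11.7 and 53.7 in Lamp5 and Sst. So Npas1 was no higher in Vip than in Cnr1/Cck nuclei, and after each nucleus was thinned to 1000 UMIs it was detected in 11.8% of 102 Vip and 21.6% of 139 Cnr1/Cck nuclei. After thinning, the listed genes Rgs12, Cxcl14 and Slc17a8 were detected in 9.80, 5.88 and 0% of Vip and 15.1, 7.19 and 7.91% of Cnr1/Cck nuclei. Kit, also listed, was detected in 1.96% of Vip and 13.1% of Lamp5 nuclei, and Nrn1 in 0% of Vip and 3.24% of Sst nuclei.

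Prox1, a homeobox gene that caudal eminence interneurons keep, was at 173 CPM in Vip nuclei against 30.0 in Cnr1/Cck, 40.9 in Lamp5 and 11.3 in Sst nuclei. After thinning, 17.6% of Vip nuclei held a Prox1 UMI, against 3.60, 1.64 and 1.08% in those classes. Its share in Mog nuclei was 17.6% without thinning, so Mog nuclei are no background for this gene. Adra1b, an adrenergic receptor outside the Vip list, was at 118 CPM against 9.90 to 19.1 in the other 3 classes. Egfr, the epidermal growth factor receptor and also outside the list, was at 325 CPM in Vip and 237 in Lamp5 nuclei. In Cnr1/Cck and Sst nuclei Egfr was at 23.1 and 12.0 CPM. These levels pool mice that gave unequal numbers of nuclei and are a description; genes with enough counts were tested within mice below.

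Neuropeptide genes were found in subsets of the Vip nuclei. Tac2, which encodes neurokinin B, was found in 17 Vip nuclei from 11 mice, and Penk, which encodes enkephalin, in 18 from 9 mice. Their pooled levels were 113 and 99.5 CPM, against at most 17.7 and 4.08 in the Lamp5, Cnr1/Cck and Sst classes. Grpr, the receptor of gastrin-releasing peptide, was found in 18 nuclei (62.9 CPM, against at most 5.65). Calb2 was found in 14 nuclei (44.5 CPM), Crh, the stress peptide gene, in 8 (31.4 CPM), and Pthlh was at 26.2 CPM. Mog nuclei held Tac2, Penk, Grpr, Calb2 and Crh in 0.0624 to 0.645%. Of the 22 neuropeptide and peptide-processing genes listed, 5 had no UMI in Vip nuclei: Pdyn, Tac1, Cort, Trh and Adcyap1. Peptide-processing genes were found more widely, with Pam, which amidates peptides, in 76.2% of Vip nuclei, Cpe in 58.1% and Pcsk2 in 54.3%.

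Cck and Calb2 are the genes by which Vip cells are commonly divided. Cck was found in 38 Vip nuclei and Calb2 in 14, with 6 holding both and 59 neither. With all mice pooled, 5.07 of the 105 nuclei would hold both if the genes were unrelated. Cck and Npas1 were found together in 19 nuclei (12.7 if unrelated), Cck and Penk in 4 (6.51), and Calb2 and Npas1 in 8 (4.67). Detection moved with the library: Cck was found in 24 of 37 Vip nuclei of mice 1 to 4 and in 14 of 68 in the other 16 mice. For Calb2 the counts were 11 of 37 and 3 of 68, and for Htr3a, the ionotropic serotonin receptor, 8 of 37 and 3 of 68. Egfr was nearly even, at 19 of 37 and 37 of 68, and so was Adra1b, at 12 of 37 and 20 of 68. The part of these libraries in the split was not tested, and free Cck RNA gave a UMI in 17.6% of Mog nuclei. The counts given above for unrelated genes pool all mice and take no account of the library. They therefore cannot show whether these genes occur together more or less often than unrelated genes would.

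**Figure D2:**
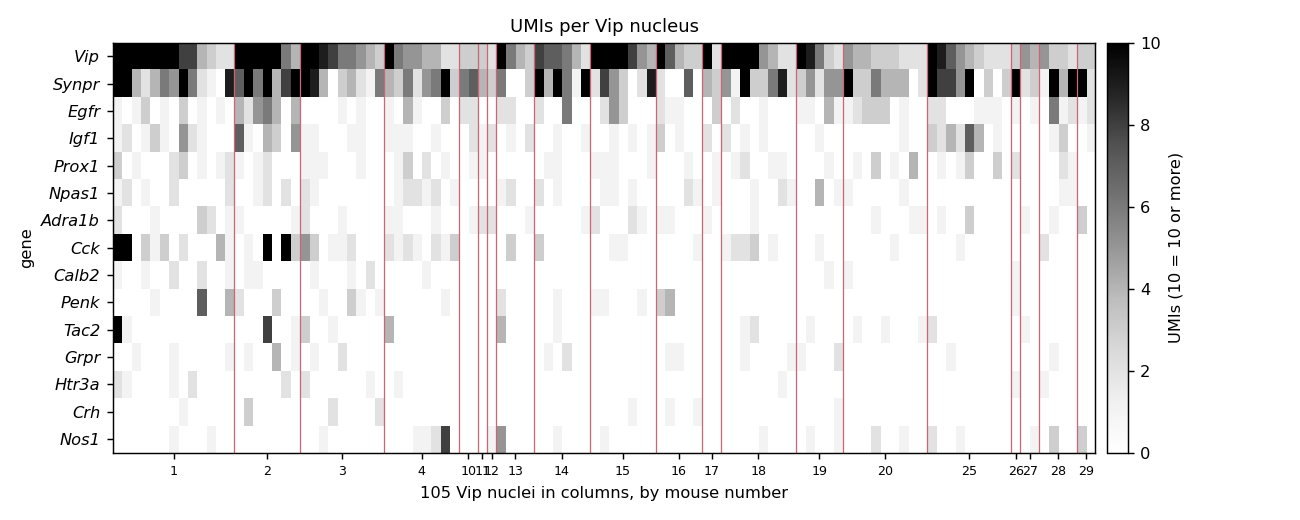
UMIs of 15 genes (rows) in the 105 Vip nuclei (columns, grouped by mouse number between red lines, ordered by Vip within a mouse), from white at 0 to black at 10 or more. Synpr is seen across mice, while Cck and Calb2 lie mostly in the 37 nuclei of mice 1 to 4.

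Nuclei with Calb2 and no Cck (8 nuclei from 7 mice) and with at least 2 Cck UMIs and no Calb2 (18 from 8 mice) were too few to compare within mice, since no mouse had 3 of each. Pooled, Adarb2 was at 6320 CPM in the first and 20840 in the second. Cnr1, the receptor of endocannabinoids, was at 290 and 1669 CPM, Igf1 at 29.0 and 295, and Col25a1 at 174 and 1117. In the other direction, Grm8, a presynaptic glutamate receptor, was at 986 and 141 CPM, and Penk at 232 and 0. Tac2 was at 0 and 257 CPM. Each value rests on 8 or 18 nuclei and carries no test.

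Vip nuclei were next compared with Cnr1/Cck nuclei of the same mice, to find which genes outside the rules separate the 2 classes. In 10 mice with at least 5 nuclei of both (81 Vip and 94 Cnr1/Cck nuclei), 66 genes were higher in Vip nuclei (15.4% of 429 tested) and 53 lower (12.4%) at an adjusted p under 0.05 (edgeR quasi-likelihood test, mouse as a block). Grm7 and Grm8 encode group III metabotropic glutamate receptors, which sit at release sites. Grm7 was at 1172, 1910 and 3539 CPM (lowest, median and highest mouse) in Vip nuclei and 105, 487 and 943 in Cnr1/Cck nuclei, so the classes did not overlap and 10 of 10 mice were higher (log2 difference 1.99 ± 0.20 SE, adjusted p = 7.3e-06). Grm8 was at 425, 895 and 3005 against 0, 80.8 and 364 CPM (2.98 ± 0.49, adjusted p = 0.00033), also without overlap. In the Sst comparison, Grm8 was higher too, while Grm7 did not pass the test (0.31 ± 0.19, adjusted p = 0.216).

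Among genes of excitability and adhesion, Kcnt2, a sodium-activated potassium channel, was at 475, 931 and 1352 against 105, 233 and 396 CPM (1.81 ± 0.20, adjusted p = 8.6e-06). Kcnb2, a delayed rectifier, was higher by 1.45 ± 0.24 and Erbb4, the neuregulin receptor of interneurons, by 1.48 ± 0.17, each in 10 of 10 mice. Of 34 potassium and HCN channel genes, 12 could be tested. Of these 12, Kcnt2 and Kcnb2 were higher and Kcnh7, of the ERG family, was lower (−0.83 ± 0.29, adjusted p = 0.045), beside 15.4% of all genes higher and 12.4% lower. Kcnh7 was called in only 2 of 10 fits that left out a mouse. Cntnap2, a neurexin-like adhesion gene, rose above Cnr1/Cck nuclei in each of 10 mice (7789 against 2387 CPM at the medians, 1.63 ± 0.17). Cdh10, Limch1, Pcdh15, Cit, Dscam and Sorcs3 were also called higher, by 1.15 to 2.44 on the log2 scale.

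Of the 24 Vip cell genes, 4 passed the count filter, which a gene can pass through the class where it is high. Synpr was at 676, 1582 and 2619 CPM in Vip and 256, 527 and 1369 in Cnr1/Cck nuclei, higher in 9 of 10 mice (1.44 ± 0.28, adjusted p = 0.0015). Pcdh15 (2.44 ± 0.35) and Caln1, a calcium sensor (1.52 ± 0.43), were called higher as well. Neither was particular to Vip nuclei. After thinning, Pcdh15 was found in 40.2% of Vip, 10.8% of Cnr1/Cck, 42.6% of Lamp5 and 53.6% of Sst nuclei. Caln1 was found in 30.4, 5.76, 39.3 and 4.32% in the same order. Against Lamp5 nuclei 2 of 4 tested genes of this list were higher, beside 12.2% of all genes, and against Sst nuclei 2 of 3, beside 20.0%. Adarb2 was at 13589 against 9828 CPM at the medians and missed the threshold (0.38 ± 0.15, adjusted p = 0.0685). The median of the 4 was 1.48, beside −0.06 over all 429 genes. It covers only the genes that passed this filter and is a description.

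Counts in the lists that follow stand beside 15.4% of all genes higher and 12.4% lower. Among 5 AMPA and kainate subunit genes tested, Grik1 (1.35 ± 0.37) and Grik2 (0.73 ± 0.17) were higher in Vip nuclei, and Gria1 was lower (668 against 1285 CPM at the medians, −0.99 ± 0.22, adjusted p = 0.0037). Of 3 NMDA subunit genes, Grin2a was lower (−1.38 ± 0.33), and of 4 GABA-A subunit genes, Gabrg3 was higher (1.39 ± 0.40). None of 5 genes of the GABA release machinery was called. Of 3 neuropeptide genes tested, Pam was higher (1.27 ± 0.27), and the phosphodiesterases Pde10a and Pde4b were higher by 0.90 ± 0.27 and 0.84 ± 0.25. Without mice 1 to 4, Gabrg3, Pam, Pde10a and Pde4b lost their calls, and so did Grik1, Grin2a and Gabrg3 without doublets. Over all other settings, Pde10a and Pde4b each lost their call in 3 of 4, Gabrg3 in 2 of 4 and Grik2 in 2 of 5, with Grik2 down to 0.30.

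The genes lower in Vip nuclei were led by Sgcd, δ-sarcoglycan of the dystrophin complex, at 31.5, 129 and 911 against 965, 1512 and 5899 CPM (−3.35 ± 0.36, adjusted p = 7.3e-06). The collagens Col19a1 (0, 174 and 315 against 512, 833 and 1427 CPM) and Col25a1 (0, 454 and 1196 against 839, 1973 and 3406 CPM) were lower in 10 of 10 mice, by −2.51 ± 0.35 and −2.13 ± 0.47. Col25a1 was the 1 gene with enough counts among 9 listed for Cnr1/Cck cells. Ptprm, Opcml, Nav3, Pcdh9, Dgkb and Trpm3 were also lower, by −2.36 to −1.22. Without mice 1 to 4, 53 genes were called in place of 119. After thinning to 1000 UMIs, 59 genes had enough counts to be tested and 21 of them were called.

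**Figure D3:**
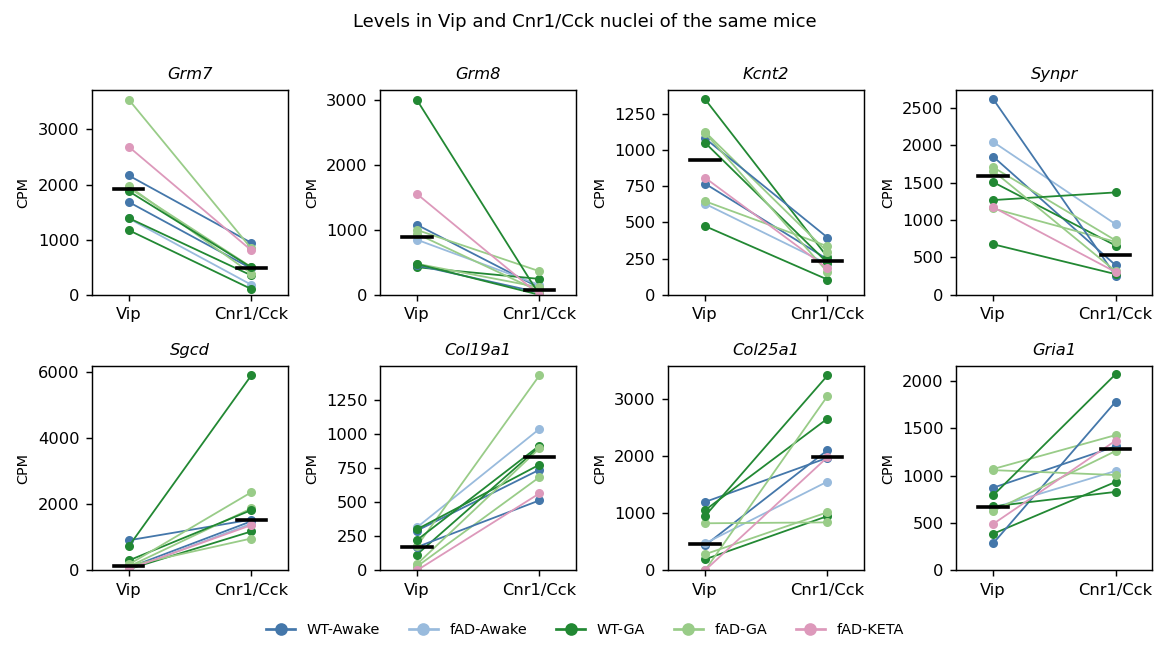
Levels (CPM) of 8 genes in Vip and Cnr1/Cck nuclei, with a line for each of the 10 mice coloured by group and a black bar at the median. Grm7, Grm8 and Kcnt2 fall from Vip to Cnr1/Cck nuclei in 10 of 10 mice, and Sgcd, Col19a1 and Col25a1 rise in 10 of 10.

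Sst cells arise in the medial ganglionic eminence and are known targets of Vip cells, and their nuclei were compared in the same way. In 8 mice (63 Vip and 226 Sst nuclei), 87 genes were higher in Vip nuclei (20.0% of 434 tested) and 98 lower (22.6%). Here too a gene could pass the count filter through the class where it was high. Counts and medians of gene lists in this comparison are therefore descriptions. Adarb2 was at 8705, 14028 and 20438 CPM in Vip nuclei and 0, 115 and 274 in Sst nuclei (6.91 ± 0.40, adjusted p = 3.4e-08). Nxph1 ran the other way, at 0, 14.1 and 104 against 1355, 2249 and 3626 CPM (−5.86 ± 0.37, adjusted p = 4.1e-08). Neither gene overlapped between the classes, in 8 of 8 mice. Of 13 genes listed for Sst and Pvalb cells, 5 were tested and 4 were lower: Nxph1, Reln (−2.21 ± 0.47), Kcnc2, the fast-spiking channel Kv3.2 (−1.32 ± 0.22), and Grik1 (−0.99 ± 0.27). The fifth, Maf, had −0.46 ± 0.23 and was not called. Sox6, which these cells keep from their origin, had too few counts for the test, with 5.24 CPM in Vip and 291 in Sst nuclei.

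Several AMPA receptor genes, which carry fast excitation, were lower in Vip than in Sst nuclei. Gria3 was at 0, 85.8 and 169 CPM in Vip nuclei against 807, 976 and 1297 in Sst nuclei (−3.46 ± 0.32, adjusted p = 1.7e-06), again without overlap. Gria1 (−2.53 ± 0.29) and Gria4 (−1.57 ± 0.24) were lower in 8 of 8 mice, while Gria2, whose edited subunit keeps calcium out of the channel, was higher by 0.52 ± 0.18 (adjusted p = 0.03). With Grik1 lower and Grik2 higher (0.55 ± 0.15), 4 of 6 tested genes of this list were lower and 2 higher, and their median was −1.28 beside −0.06 over all genes, of which 20.0% were higher and 22.6% lower. Since a gene could pass the count filter through Sst nuclei alone, this count and median describe only the genes that passed. Among 4 NMDA subunit genes, Grin2a (−1.71 ± 0.39) and Grin3a (−2.17 ± 0.44) were lower and Grin2b was higher (0.80 ± 0.18). Of 3 GABA-A genes, Gabrb1 and Gabrg3 were higher, by 0.85 ± 0.19 and 1.19 ± 0.41. Gria2 lost its call in 3 of 8 fits that left out a mouse and Gabrg3 in 2, and Gria2, Grik1, Grik2 and Grin3a lost theirs without mice 1 to 4. Over all other settings, Gria2 lost its call in 2 of 4 and Grik2 in 2 of 5, with log2 differences down to 0.08 and 0.10. Grin2b and Gabrb1 each lost theirs in 1 of 4, with differences down to 0.35 and 0.42.

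Among potassium and HCN channel genes, 11 were tested, with a median of −0.03 beside −0.06 over all genes. Of them, Kcnt2 (2.13 ± 0.26), Kcnq5, Kcnb2 and Kcnd3 were higher and Kcnc2, Kcnma1 (−1.04 ± 0.17) and Kcnmb2 lower, beside 20.0 and 22.6% of all genes, and Kcnb2 was called in 2 of 8 fits that left out a mouse. Sorcs1 and Sorcs3, sorting receptors of the VPS10 family, were higher by 4.76 ± 0.35 and 4.49 ± 0.42, and Kcnip4 and Kcnip1, partners of A-type channels, by 3.48 ± 0.25 and 1.72 ± 0.17. Kctd8, an auxiliary subunit of the GABA-B receptor, was at 0, 0 and 58.8 against 476, 631 and 1061 CPM (−5.41 ± 0.40). Synpr was higher in 7 of 8 mice (0.86 ± 0.26, adjusted p = 0.016). Of 4 other settings, Synpr and Kcnd3 each lost their call in 2 and Kcnb2 in 3, with log2 differences down to 0.43, 0.22 and 0.27. Dlx6os1, an antisense RNA of the Dlx6 locus, was higher by 1.64 ± 0.29; how strand was used in counting is not given in the sources used here. Of 7 mitochondrial genes tested, mt-Nd4 and mt-Co3 were lower, by −0.68 ± 0.24 and −0.74 ± 0.26, beside 22.6% of all genes. The call was lost for mt-Co3 in 5 of 8 fits that left out a mouse and for mt-Nd4 in 3 of the 4 that could test it, and Sst nuclei were the deeper class (median 4511 UMIs). After each nucleus was thinned to 1000 UMIs, 68 genes had enough counts and 40 of them were called, and 122 genes were called without mice 1 to 4.

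Against Lamp5 nuclei the comparison rested on 3 mice (1, 2 and 4) with at least 5 nuclei of both classes, 28 Vip and 31 Lamp5 nuclei in all. In them, 75 of 617 genes were higher in Vip nuclei (12.2%) and 60 lower (9.72%), and 14 were called without mouse 1. Npas3, a transcription factor gene, was at 2368, 3303 and 1634 CPM in Vip nuclei of mice 1, 2 and 4 and at 22.7, 11.9 and 38.2 in their Lamp5 nuclei (6.87 ± 0.51, adjusted p = 7e-11). Synpr was at 1849, 2045 and 1155 against 136, 23.8 and 0 CPM (5.07 ± 0.50), and Grm8 at 1080, 849 and 479 against 0, 11.9 and 38.2 (5.74 ± 0.64). In these 3 genes the lowest Vip value lay far above the highest Lamp5 value.

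Adarb2 (2.48 ± 0.24), Grm7 (4.03 ± 0.44), Nrxn3, Dscam and Kcnip4 were also higher in 3 of 3 mice. Chrm3, a muscarinic acetylcholine receptor, was the 1 of 3 tested neuromodulator receptor genes called (1.50 ± 0.42, adjusted p = 0.0079). Lower in Vip nuclei were Nxph1, at 104, 62.9 and 28.2 against 2520, 2194 and 1643 CPM (−4.89 ± 0.44), Reln (−2.60 ± 0.50), Grin2a (−2.50 ± 0.47) and Gria1 (−1.16 ± 0.32). Rims1, an active zone gene, was lower by −1.15 ± 0.29. Of the 15 potassium and HCN channel genes tested, Kcnt2 (1.48 ± 0.37), Kcnb2 (1.33 ± 0.33) and Kcnq3 (1.51 ± 0.44) were higher and Kcnh7 lower (−2.06 ± 0.34), beside 12.2 and 9.72% of all genes. Kcnq3 lost its call whichever of the 3 mice was left out. Without mouse 1, the calls of Grm8, Kcnip4, Chrm3, Reln, Grin2a, Gria1, Rims1, Kcnt2, Kcnb2 and Kcnh7 were lost too, and those of Chrm3 and Gria1 also without mouse 2.

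The 3 class comparisons share the Vip nuclei of some mice, so their values are given side by side and no agreement is counted. Kcnt2 differed by 1.81, 2.13 and 1.48 from Cnr1/Cck, Sst and Lamp5 nuclei, Synpr by 1.44, 0.86 and 5.07, and Grm8 by 2.98, 1.50 and 5.74. Grin2a differed by −1.38, −1.71 and −2.50, and Gria1 by −0.99, −2.53 and −1.16. On the genome (GRCm38), Vip lies at chr10:5639218-5647617 on the plus strand, Kcnt2 at chr1:140246158-140612067 (plus), Synpr at chr14:13284780-13616340 (plus), Grm8 at chr6:27275119-28135178 (minus) and Grm7 at chr6:110645581-111567230 (plus). Introns were counted, so most of the length of these genes could give UMIs.

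Vip nuclei as a share of GABAergic nuclei were compared between states and genotypes. In a share, fewer Vip cells and less Vip RNA per cell cannot be told apart, since the rule asks for 2 Vip UMIs. The 6 WT-Awake mice had 0.833 to 4.61% (median 2.54%), and the fAD-Awake mice 2, 10 and 17 had 3.85, 0.787 and 0.858%. The WT-GA mice 3, 16 and 18 had 3.41, 1.64 and 4.47%, and the fAD-GA mice 4, 11, 15 and 20 had 3.23, 0.667, 4.64 and 4.74%. WT-KETA mice 27 and 28 had 2.53 and 4.04%, and fAD-KETA mice 25 and 26 had 6.38 and 0.621%. Every group with at least 3 mice overlapped with each other one, and the 2 fAD-KETA mice gave the highest and the lowest share of the 20.

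Awake mice averaged 2.43% ± 1.51 (SD, n = 9) and GA mice 3.25% ± 1.58 (n = 7), a difference of 0.828 percentage points (two-sided exact permutation test, p = 0.298, adjusted over 3 tests p = 0.583). KETA mice averaged 3.39% ± 2.43 (n = 4), 0.967 points above Awake (exact permutation p = 0.389, adjusted p = 0.583). Mice labelled fAD and WT averaged 2.86% ± 2.19 (n = 9) and 2.95% ± 1.28 (n = 11), a difference of −0.0867 points (exact permutation p = 0.914). Each mouse gave 1 to 13 Vip nuclei, so counting error alone was wide, and none of these differences exceeded the spread between mice. Without mice 11, 14 and 17 the genotype difference was 0.536 points (exact permutation p = 0.526), and without mouse 25 the KETA difference was −0.0291.

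**Figure D4:**
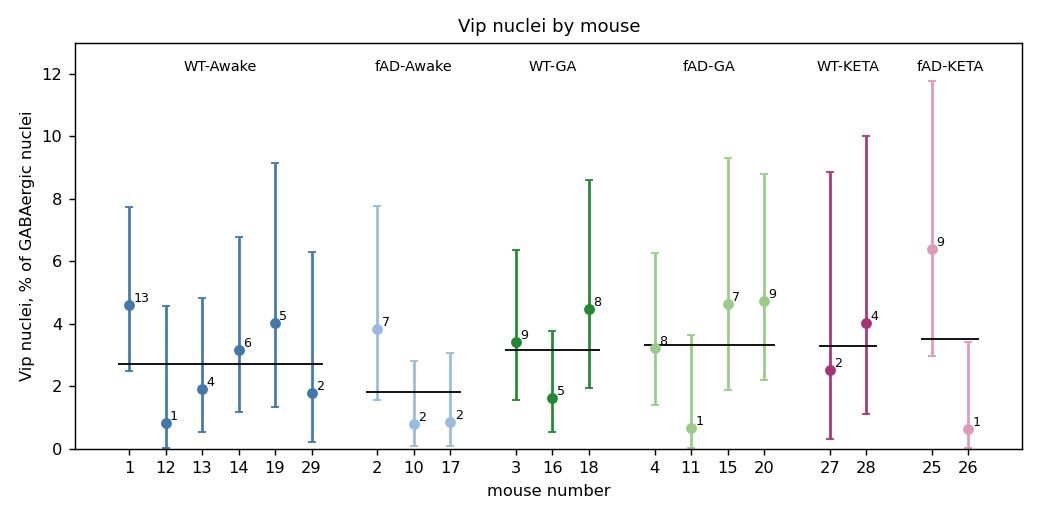
Vip nuclei as a percent of GABAergic nuclei in each of 20 mice, with exact 95% intervals (counting error only), the number of Vip nuclei beside each point and a bar at the group mean. Intervals overlap widely between groups, and the shares run from 0.621 to 6.38%.

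The Vip level within the chosen nuclei is given as a description, because Vip chose them. It ran from 774 to 2831 CPM in the 9 Awake mice (median 1936), from 1070 to 4470 in the 7 GA mice (median 2217), and from 312 to 1193 in the 4 KETA mice (median 896). The Awake and GA ranges overlapped, with GA mice 3 and 15 (3362 and 4470) above each Awake mouse, and the KETA mice lay in the lower part of the Awake range or below it.

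The response to isoflurane and the genotype difference were tested on the summed counts of 11 mice with at least 5 Vip nuclei (86 nuclei), and 844 genes passed the count filter. Awake rested on WT mice 1, 14 and 19 and on 1 fAD mouse, mouse 2, and GA on WT mice 3, 16 and 18 and fAD mice 4, 15 and 20. The other mouse, fAD-KETA mouse 25, was alone in its group and entered none of the 3 contrasts. No gene was called for GA against Awake (0% of those tested), for fAD against WT (0%) or for their interaction (0%) by edgeR's quasi-likelihood test, and an unadjusted p under 0.05 was reached by 53, 22 and 33 genes. DESeq2 called 0 in each, with 30, 14 and 21. Accordingly, 0 of the 7 tested Vip cell genes, 6 GABA-A subunit genes, 4 NMDA, 6 AMPA and kainate, and 15 potassium and HCN channel genes were called in any of the 3. Their median log2 differences for GA were −0.28, −0.60, 0.31, 0.13 and −0.01, beside 0.06 over all genes.

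The smallest p values for GA belonged to Nrg1 (−2.87 ± 0.74, adjusted p = 0.486), Kctd16, a partner of the GABA-B receptor (−1.29 ± 0.36), March1 (1.42 ± 0.39) and Car10 (1.48 ± 0.42), all short of the threshold. Nrg1 was called with no filter on low counts (−3.01 ± 0.60, adjusted p = 0.00718) and without mouse 15 (−4.95 ± 0.84, adjusted p = 0.00825), and in the 20 mice but mice 1 to 4 it was at 1.25. For genotype, Prnp had the smallest (2.48 ± 0.65, adjusted p = 0.791), at 566, 169, 353, 134 and 256 CPM in Vip nuclei of the fAD-labelled mice 2, 4, 15, 20 and 25 and 20.8 to 116 in the 6 labelled WT. Among these mice, of which mouse 25 entered no contrast, the 2 sets did not overlap, but each WT value rested on 1 to 3 UMIs. Mouse 14, the WT-labelled mouse with a high Prnp level over all nuclei, had 56.9 CPM in 1 UMI. Mouse 20, labelled fAD and in the fit, had 99.7 CPM over all nuclei, within the range of the other WT libraries. Outside the fit the labels overlapped. There fAD mice 10, 11 and 17 were at 0, and fAD mouse 26, at 104 CPM in 1 UMI, lay below WT mouse 3 at 116. WT mice 12, 13, 27, 28 and 29 were at 0. Egfr (1.47 ± 0.43, adjusted p = 0.821) and Unc5d, a netrin receptor (−3.97 ± 1.09), came next. In the interaction, Grin2a had the smallest p (5.05 ± 1.34, adjusted p = 0.574), with mouse 2 as its only fAD-Awake mouse. Mice 11 and 17 had fewer than 5 Vip nuclei and are not in this fit; without mouse 14 it also called 0 genes for fAD against WT.

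Whether Vip nuclei responded to GA otherwise than the remaining GABAergic nuclei of the same mice was tested as an interaction in the 11 mice. Of 5867 genes, 2 were called (0.0341%). Nrg1 (chr8:31814551-32884029, minus strand) encodes neuregulin 1, the ligand of ErbB receptors. Its level in Vip nuclei was 436, 692, 171 and 118 CPM in the Awake mice 1, 2, 14 and 19, and 77.3, 0, 294, 0, 31.7 and 0 in the GA mice 3, 4, 15, 16, 18 and 20. The states overlapped through mouse 15, and the other GA mice lay below each Awake mouse. In the other GABAergic nuclei of these mice it was 305 to 742 CPM in Awake and 259 to 1331 in GA. The response in Vip nuclei was lower by −2.89 ± 0.58 on the log2 scale than in the other nuclei (adjusted p = 0.00395).

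This call for Nrg1 rested on few UMIs and on particular mice. In Vip nuclei, mice 1 and 2 gave 21 and 22 Nrg1 UMIs, and each of the other 8 GA and Awake mice gave 0 to 5. Without mice 1 to 4 the difference was −0.92 ± 1.01 (adjusted p = 1), without mouse 1, 2 or 16 the adjusted p was 0.17, 1 and 0.121, after thinning it was 0.718, and by DESeq2 0.999. Among mice outside the fit, GA mouse 11 had 1280 CPM (3 UMIs in 1 nucleus) Awake mouse 13 had 316 CPM (4 UMIs), and Awake mice 10, 12, 17 and 29 were at 0.

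Mir670hg (chr2:94160636-94264918, minus strand) is a long non-coding RNA that hosts a microRNA. In Vip nuclei it was at 395, 252, 114 and 0 CPM in the 4 Awake mice and 657, 56.3, 647, 526, 918 and 403 in the 6 GA mice, in the order above. Except in mouse 4, these GA values lay above these Awake ones. The other GABAergic nuclei had 64.3 to 131 CPM in Awake and 32.7 to 121 in GA. The response was higher in Vip nuclei by 1.96 ± 0.45 (adjusted p = 0.0458), close to the threshold, and it was called in 2 of the other fits, without mouse 4 and without mouse 15. By DESeq2 the adjusted p was 0.999. Mice outside the fit had 0 to 723 CPM in Awake, and GA mouse 11 had 2561 CPM in 6 UMIs of 1 nucleus.

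**Figure D5:**
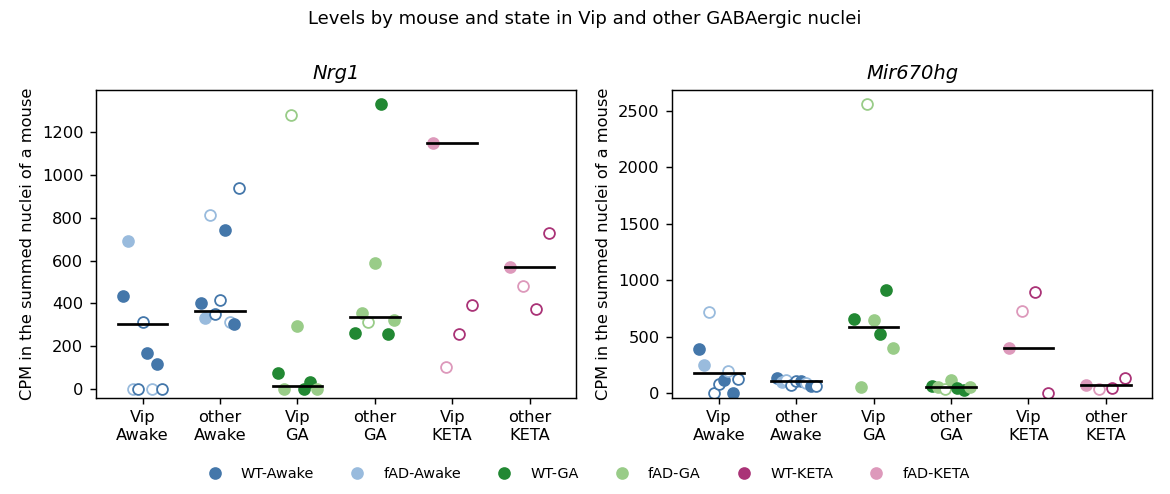
Levels (CPM) of Nrg1 and Mir670hg by mouse in Vip and in other GABAergic nuclei under each state, coloured by group, with filled points for the 11 mice of the test, open points for mice with fewer than 5 Vip nuclei, and bars at the median of the filled points. In Vip nuclei, 3 of 6 filled GA points for Nrg1 are at 0, and 5 of 6 for Mir670hg lie above the filled Awake points, while an open Awake point (mouse 10) stands at 723 CPM.

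Ketamine with xylazine was compared with Awake in all 20 mice, since no WT-KETA mouse had 5 Vip nuclei, and so on sums of as few as 1 nucleus per mouse. Of 482 genes, 8 were called (1.66%), 3 higher and 5 lower. Rbfox1, a neuronal splicing factor gene, was at 3196, 6443, 7434 and 4268 CPM in KETA mice 25 to 28 and at 482 to 3180 in the 9 Awake mice (median 1294), without overlap (1.70 ± 0.33, adjusted p = 0.0073). Tenm2, a teneurin adhesion gene, rose by 1.31 ± 0.32 and Ryr3, an intracellular calcium channel gene, by 2.26 ± 0.52. Tenm2 overlapped between the states, at 3580 to 9145 CPM in KETA mice and 968 to 5780 in Awake mice. Rbfox1 was 1 of the genes that were lower in Vip than in Sst nuclei, by −2.36 ± 0.20.

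Adarb2, typical of the Vip class, was at 6009, 1039, 12048 and 7212 CPM in the KETA mice and at 13586 to 25016 in the Awake mice (median 18386), again without overlap (−1.61 ± 0.36, adjusted p = 0.0111). The 1039 CPM of mouse 26 came from 1 nucleus, which resembled a simulated doublet. Its other values come from the same nucleus, with Rbfox1 at 6443 CPM. GA mice with at least 5 Vip nuclei had Adarb2 at 8705 to 16118 CPM, and GA mouse 11 had 42254 CPM in 1 nucleus. The other GABAergic nuclei had it at 2186 to 3955 CPM in KETA and 2186 to 4272 in Awake. Dlx6os1 was at 170, 0, 385 and 343 against 602 to 1588 CPM (−2.46 ± 0.50, adjusted p = 0.0073). It was also lower in the other GABAergic nuclei, at 115 to 179 CPM in KETA against 233 to 531 in Awake. GA mice had 0 to 896 CPM in Vip nuclei and 111 to 239 in the other GABAergic nuclei. Whether the KETA difference was larger in Vip nuclei was not tested. Atp6v0c, a subunit gene of the proton pump of vesicles, was lower by −3.77 ± 0.80, on at most 1 UMI in a KETA mouse, and Fth1, ferritin heavy chain, by −3.45 ± 0.92, on at most 3. In Awake, mice 1 and 2 gave 32 and 34 UMIs of Atp6v0c, and each other mouse 0 to 6. For Fth1 they gave 43 and 38, and each other Awake mouse 0 to 12, so both genes overlapped between the states. Of 20 fits that left out a mouse, Fth1 lost its call in 11 and Atp6v0c in 3. The mitochondrial gene mt-Atp6 had 0 UMIs in KETA nuclei, and in Awake it had 28 and 36 UMIs in mice 1 and 2 and 0 to 3 in each of the other 7 mice. Its call was lost in 7 of the 18 fits that left out a mouse and could test it. Mitochondrial genes together made 289 to 7770 CPM of Vip nuclei in Awake mice and 0 to 147 in KETA mice, and 6234 CPM in mice 1 to 4 against 561 in the other 16.

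Other values moved with this comparison. The KETA mice carry the numbers 25 to 28, and the nearest Awake mouse is 29, with 2 Vip nuclei. It had Adarb2 at 25016, Rbfox1 at 645, Dlx6os1 at 1418, Ryr3 at 129 and Atp6v0c at 258 CPM, each outside the KETA range. Its Tenm2 at 3868 CPM, Fth1 at 0 and mt-Atp6 at 0 lay inside that range. When a term for runs of neighbouring mouse numbers was added, no gene was called (42 had an unadjusted p under 0.05). The log2 differences were then 2.58 for Rbfox1, 3.14 for Ryr3, 1.09 for Tenm2, −2.74 for Dlx6os1, −2.03 for Adarb2 and −2.83 for Atp6v0c, while mt-Atp6 was at −0.38 and Fth1 turned to 2.90. A Slc17a7 UMI was found in 4 of 16 KETA, 7 of 42 Awake and 4 of 47 GA Vip nuclei, and without such nuclei no gene was called (57 under 0.05). The differences were then 1.43 for Rbfox1, 2.46 for Ryr3, 1.07 for Tenm2, −2.22 for Dlx6os1, −1.67 for Adarb2 and −3.06 for Atp6v0c. Of 11 genes of excitatory neurons, 8 had a UMI in Vip nuclei (Slc17a6, Tbr1 and Iyd were at 0), and their summed level was 1513 to 1923 CPM in KETA mice, 0 to 1445 in Awake and 0 to 1577 in GA mice. Among KETA nuclei without Slc17a7, Adarb2 was at 7174 CPM and Nxph1 at 341. With marked doublets removed, which left 19 mice, 7 genes were called. Adarb2 (−1.16), Dlx6os1 (−2.24), Tenm2 (0.95) and Fth1 (−3.51) were not among them. With no filter on low counts 6 genes were called, and of the 8 above only mt-Atp6 was among them. Without mice 1 to 4, Adarb2, Dlx6os1, Rbfox1 and Tenm2 were called, Ryr3 (2.14) was not, and Atp6v0c, Fth1 and mt-Atp6 gave no value. When a mouse was left out, from 1 (without mouse 28) to 13 genes (without mouse 10 or 19) were called, with 2 without mouse 26 and 4 without mouse 2 or 25.

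Genes that neuronal activity induces were close to the limit of detection in Vip nuclei. None of 20 activity-regulated transcription factor genes had enough counts in the GA or KETA fits. Fos had 2 UMIs in 42 Awake nuclei and 0 in 47 GA and 16 KETA nuclei, and Egr1 had 5, 0 and 1. Nr4a1 had 6, 3 and 3, Junb 4, 2 and 0, and Nr4a3 and Bdnf, the neurotrophin gene, had 4 and 5 UMIs in Awake and 0 in both anesthetized states. A count of 0 allowed levels up to 20.3 CPM in GA and 35.4 CPM in KETA (3 counts over the pooled nuclei), and Egr1 in Awake was at 33.5 CPM, so the KETA counts could not show a loss and none of these genes was tested. Among effectors with more counts, pooled levels were, for Homer1, a postsynaptic scaffold, 114, 108 and 118 CPM and for Pde10a 1080, 852 and 861 in Awake, GA and KETA. Igf1 was at 329, 142 and 319 CPM and was not called in any state. In KETA, mouse 25 gave 23 of its 27 UMIs, mouse 28 gave 4, and mice 26 and 27 were at 0.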

How the data were processed

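The authors deposited raw UMI counts per nucleus and gene (32285 genes) for hippocampal nuclei of 20 mice, made per the file headers and labels with Cell Ranger 5.0.0 on the mouse build mm10, with intronic reads counted. The methods also name CellBender for free RNA, and whether the deposited counts had passed through it is not given in the sources used here. No nucleus had fewer than 200 genes, the minimum of the study.

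Vip nuclei were chosen by counts of marker genes, and their members, the comparison classes and the gene lists were chosen with earlier results of these data known. Their counts were summed per mouse and class, with at least 5 nuclei in a mouse and class, and tested with edgeR 4.0.16 (R 4.3.3): TMM scaling, its filter on low counts, the quasi-likelihood test and Benjamini-Hochberg adjustment over all genes tested, with a threshold of 0.05. Genes of the rules were left out of the tests, and the standard error is the log2 difference over the root of F. GA, genotype and their interaction were fitted in 11 mice, with the genotype difference averaged over Awake and GA. No WT-KETA mouse had 5 Vip nuclei, so KETA was fitted in all 20 mice, a choice made after seeing the data. Classes were compared with the mouse as a block, and a planned comparison of Calb2 and Cck nuclei could not be made. The mouse is the replicate, and the numbers of mice are unique to each group. Batches of tissue are not in the labels, so runs of consecutive mouse numbers stood in for them in one alternative. DESeq2 1.42.0 was an alternative. Shares were compared by exact permutation tests over mice (scipy 1.17.1), and intervals are exact binomial, for counting error only. Doublets were marked against simulated ones (2000 variable genes, 30 components, 0.8% per 1000 nuclei) and were kept.

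Named genes were the 10 with the smallest p in each direction among those called, or 5 where fewer than 5 were called, and members of the gene lists. Counts were simulated for GA against Awake with 849 genes, of which 67 were changed 2-fold, 67 were changed 3-fold and 66 were changed 6-fold. The test recovered 25.4% of the 2-fold, 55.2% of the 3-fold and 86.4% of the 6-fold changes. So moderate changes could be missed at the 13312 to 48140 UMIs per mouse of this fit. The adjusted threshold is stricter where fewer genes are changed, so recovery in the data may be lower than these shares. Gene positions are those of GRCm38 with GENCODE annotation. Some genes that passed the tests are not reported here.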

Additional observations from a re-analysis of the deposited data

Results flagged for a closer look

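The Vip level of mouse 15 stood apart within the fAD-GA group, at 4470 CPM in its 7 Vip nuclei against 1070, 1280 and 1254 CPM in mice 4, 11 and 20. The gap passed Dixon's limit for a group of its size, and chance marks about 1 in 20 groups; 4 such checks were made, of 2 measures in 2 groups. Vip chose these nuclei, so this is a description.

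The response of Nrg1 to GA differed between Vip nuclei and the other GABAergic nuclei of the same mice by −2.89 ± 0.58 on the log2 scale (edgeR's quasi-likelihood test, adjusted p = 0.00395), and that of Mir670hg by 1.96 ± 0.45 (adjusted p = 0.0458). Both rest on the mice and settings given with them above, and neither was called by DESeq2.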

How the results depend on the processing

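Mice were not paired in the main fits, because the groups share no replicate numbers and no label gives a batch. The paper's methods describe processing in batches of 4 that included every experimental group. By label, mice 1 to 4 and mice 14 to 17 each hold all 4 of the Awake and GA groups. The share tests had no term for such batches. Runs of mouse numbers, the nearest stand-in for a block, were fitted as a term instead, and GA, genotype and interaction then gave 0 genes. The 20-mouse fits and the omission of mice 11, 14 and 17 were chosen after seeing the data. For GA against Awake, 1 gene (Nrg1) was called with no filter on low counts, and 0 to 1 (Nrg1, without mouse 15) when 1 mouse was left out. For fAD against WT, DESeq2 on all 20 mice called 1 (Ptprd), and the interaction gave 0 in each of the 10 fits that left out 1 mouse. For KETA, 0 genes were called with runs of mouse numbers as a term, 4 without mice 1 to 4 and 15 with at least 3 Vip UMIs. The count was 0 without nuclei with Slc17a7, 7 without doublets, 6 with no filter on low counts, and 1 to 13 with 1 mouse left out. Against Lamp5 nuclei, DESeq2 called 50 genes, thinned counts 27 of 93 tested, and 14 to 131 were called with 1 mouse left out. Against Cnr1/Cck nuclei the counts were 192 with no filter, 53 without mice 1 to 4, 21 thinned, and 92 to 124 with 1 mouse left out. Against Sst nuclei they were 580, 122, 40, and 154 to 202. The difference in GA response gave 0 genes by DESeq2, without mice 1 to 4 and after thinning, 1 with no filter and without doublets, and 0 to 2 with 1 mouse left out. Fewer nuclei or UMIs entered the fits without mice and after thinning; otherwise the cause was not tested.

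The fAD minus WT difference in share turned to 1.29 points after thinning, to 0.00364 as a share of all nuclei and to 0.536 without mice 11, 14 and 17, and ran from −0.527 to 0.193 with 1 mouse left out. For KETA it ran from −0.0291 to 1.89 and for GA from 0.581 to 1.26, and after thinning these were 2.45 (exact permutation p = 0.383) and 2.05 points (exact permutation p = 0.0967). Among named genes, Nrg1 under GA was 1.25 in the 20 mice but mice 1 to 4. For genotype in 20 mice, Cdh10 was −0.17, −0.14 by DESeq2, −0.16 with runs of mouse numbers and −0.22 without mice 1 to 4. Kirrel3 was 0.049, 0.49 by DESeq2 and 0.74 without mice 1 to 4, and Pcdh9 was 0.16, 0.35 by DESeq2, 0.13 with the runs and 0.51 without mice 1 to 4. C130073E24Rik was −1.02 without mice 1 to 4. Fth1 under KETA was 2.90 with the runs. Of 443, 541 and 218 values for genes named against Cnr1/Cck, Sst and Lamp5 nuclei, 27, 54 and 41 lost their call and 0 changed direction. The fits of GA, genotype and their interaction on Vip sums at the minimum of 5 nuclei, when made without mice 1 to 4, without nuclei with Slc17a7 or without mouse 2 left no fAD-Awake mouse and gave no value, and Lamp5 nuclei could not be compared without mice 1 to 4.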
